A study of Mus musculus with 12 samples.

Results

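Inguinal white adipose tissue is the subcutaneous fat of the mouse groin, and in the cold part of its fat cells takes on the traits of brown fat, a change known as browning. The comparison described here is that of inguinal fat from mice kept for 3 days at 8 °C, called WT_8C, against inguinal fat from mice that stayed at 30 °C for the same 3 days, called WT_30C. Each group has 3 RNA-sequencing libraries, so 6 of the 12 libraries of the series were used. All 6 come from C57BL/6J mice with the genotype label WT and an age label of 10 weeks. The mice of both groups had first spent 4 weeks at room temperature and then 6 weeks at 30 °C, which is thermoneutral for mice, so WT_30C is the state without cold. Genes were compared when they reached 1 FPKM (fragments mapped to a gene, scaled by its length and by the library's total) in at least 3 of the 6 libraries, which 12721 of the 24344 genes in the table did.

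Thermogenic fat cells burn fatty acids in mitochondria whose inner membrane is made leaky to protons by the uncoupling protein UCP1, so that respiration yields heat in place of ATP. Cold is sensed in the skin, and sympathetic nerves in the depot release noradrenaline, which acts through beta-adrenergic receptors, cyclic AMP and protein kinase A to start lipolysis and to switch on genes for uncoupling, fatty acid oxidation and mitochondria. Thyroid hormone made active inside the cell, and nuclear receptors of the PPAR and ERR families with their coactivator PGC-1alpha (Ppargc1a), take part in the same programme.

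The series title names Ern1f/f mice and Ern1f/f mice labelled AKO, while the label of the 6 libraries used here reads WT. Ern1 encodes the endoplasmic reticulum stress sensor IRE1alpha. Its level was 6.83, 6.92 and 7.37 FPKM in the libraries labelled AKO at 8 °C, against 4.53, 5.16 and 5.20 FPKM in the WT_8C libraries. At 30 °C it was 4.50, 4.24 and 3.46 FPKM in the libraries labelled AKO, against 2.53, 3.32 and 2.97 FPKM in the WT_30C libraries. At each temperature the gene's level was therefore higher, not lower, in every library labelled AKO than in every library labelled WT. A level summed over the whole gene cannot show whether part of it was removed, so this check could not decide whether the gene was disrupted. "WT" below means the libraries labelled WT. The labels do not say whether the 3 libraries of a group came from separate animals, so the p-values measure the spread between these libraries, which may be technical.

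The 6 libraries were of similar breadth, with 12547 to 12697 genes at 1 FPKM or more and FPKM sums of 603072 to 717773. Read depth is unknown, since the table holds FPKM only. In a principal component analysis of the genes tested, WT_8C and WT_30C stood apart on the leading axis, which carried 74.6% of the variance. The adipocyte gene Cfd, which encodes adipsin, was at 8437 to 12490 FPKM across all 6, and Fabp4 was the most abundant gene in each of them. Some libraries carried genes of neighbouring tissues. Skeletal muscle markers made up 0.130%, 0.268% and 0.309% of summed FPKM in WT_8C libraries, against 0.621%, 0.892% and 1.64% in WT_30C libraries. Lymphocyte markers made up 0.143%, 0.196% and 0.197% in WT_8C libraries, against 0.452%, 0.365% and 0.482% in WT_30C libraries. WT_8C replicate 1 held epithelial genes (0.0283% of summed FPKM, against 0.00239% to 0.00343% in the other 5 libraries), and WT_8C replicate 2 held immediate early genes (0.283%, against 0.0696% to 0.130%).

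With limma on log2(FPKM + 1) and Benjamini-Hochberg adjustment over all genes tested, 6024 genes differed at an adjusted p under 0.05, which is 47.4% of those tested. Of these, 3038 (23.9%) were higher and 2986 (23.5%) were lower in WT_8C. When each library was scaled to the same FPKM sum, 2337 were higher and 4229 lower, and the median difference over all genes tested moved to -0.15 (log2), against -0.02 as deposited. The higher side held the large differences: 104 genes rose by at least 2 (log2), and 12 fell by that much. So many genes were called that each count below is to be read against 23.9% for genes called higher and 23.5% for genes called lower. The groups did not overlap for 7473 of the genes tested (58.7%). Only 80 of the 6024 called genes had overlapping groups, so lack of overlap in a called gene is the rule.

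**Figure D1:**
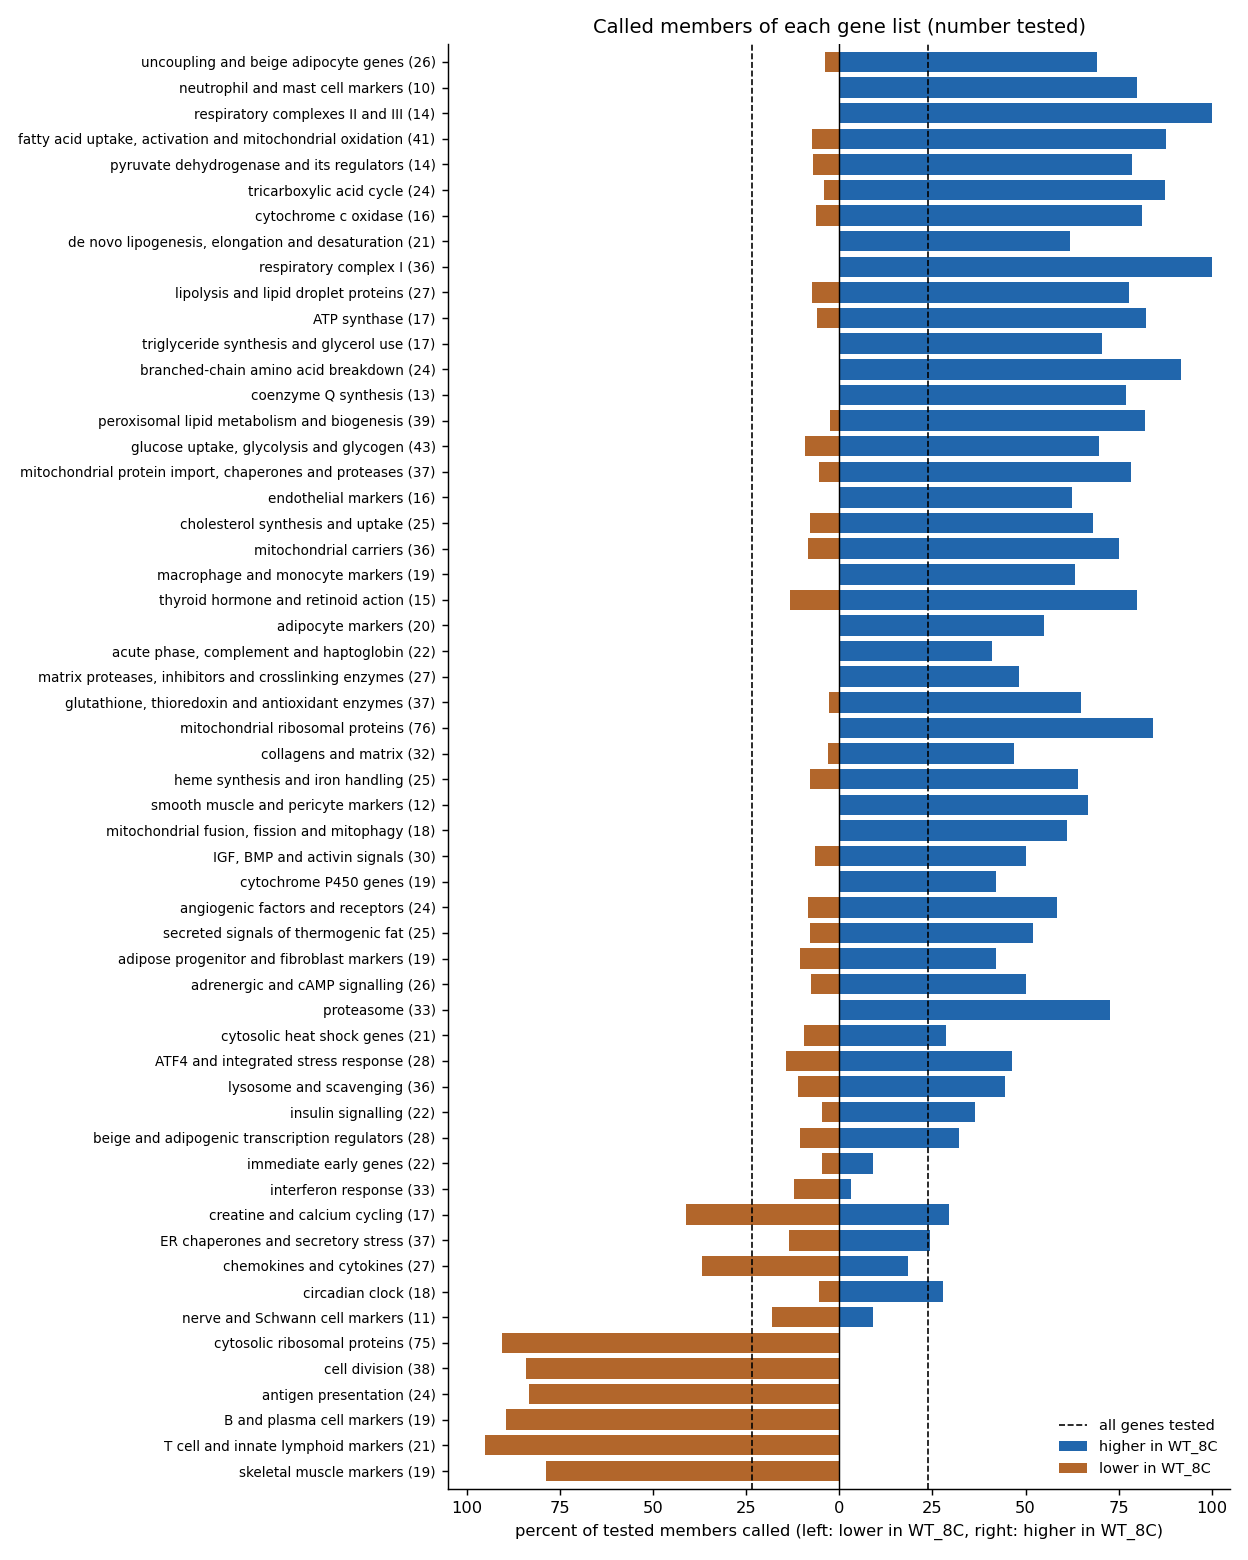
Percent of the tested members of each gene list that were called at an adjusted p under 0.05 (limma), higher in WT_8C to the right and lower to the left, with the number of members tested in brackets, for lists with 10 or more tested, ordered by their median difference. The dashed lines mark the 23.9% and 23.5% of all genes tested that were called in each direction; the mitochondrial and lipid lists reach well beyond the line on the right, and ribosomal, cell division, lymphocyte and muscle lists beyond the line on the left.

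Genes of uncoupling and of beige fat cells, the thermogenic cells that arise in white depots, had the largest median difference of the 60 lists. Of 26 tested, 18 were higher and 1 was lower in WT_8C, with a median difference of 1.83 (log2) against -0.02 over all genes tested. Ucp1, the uncoupling protein itself (chr8:83290352-83298452, plus strand, GRCm38), had 1986, 2011 and 2008 FPKM in WT_8C libraries, against 11.8, 4.8 and 11.3 FPKM in WT_30C libraries (log2 difference 7.69 ± 0.27 (SE), adjusted p = 3.93e-06). The 3 WT_8C values lay within a narrow band, and the WT_30C values were all low, and mean FPKM was 216-fold higher in WT_8C. Since whole tissue was sequenced, more cells of a type and more RNA per cell cannot be told apart, here or below. Elovl3, an elongase of very long chain fatty acids and a classical cold-induced gene of brown fat, had 199, 124 and 133 FPKM in WT_8C libraries, against 0.339, 0.132 and 0.145 FPKM in WT_30C libraries (log2 difference 6.96 ± 0.18 (SE), adjusted p = 1.37e-06). Its level was under 1 FPKM in every WT_30C library.

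Other genes of the list act at the mitochondrion and on lipid. Cidea, a protein of lipid droplet fusion that marks brown and beige fat, had 806, 1068 and 1033 FPKM in WT_8C libraries, against 202, 184 and 177 FPKM in WT_30C libraries (log2 difference 2.35 ± 0.13 (SE), adjusted p = 3.03e-05). Cox8b, a subunit isoform of cytochrome c oxidase found in heart, muscle and brown fat, had 3356, 3705 and 4252 FPKM in WT_8C libraries, against 489, 364 and 544 FPKM in WT_30C libraries (log2 difference 3.03 ± 0.17 (SE), adjusted p = 3.03e-05). Cox7a1, an isoform gene of another subunit of the same enzyme, had 985, 1539 and 1527 FPKM in WT_8C libraries, against 136, 124 and 232 FPKM in WT_30C libraries (log2 difference 3.06 ± 0.26 (SE), adjusted p = 0.000131). In all 3 genes every WT_8C library lay above every WT_30C library. Cpt1b, the muscle-type carnitine palmitoyltransferase that admits fatty acids to mitochondria, had 144, 188 and 184 FPKM in WT_8C libraries, against 23.1, 16.7 and 31.1 FPKM in WT_30C libraries (log2 difference 2.84 ± 0.21 (SE), adjusted p = 8.05e-05), and Acot11, an acyl-CoA thioesterase also called BFIT for brown fat inducible thioesterase, rose by 3.27 (log2). Otop1, a proton channel, rose by 2.41, Kcnk3, a potassium leak channel, by 1.71, S100b, a calcium-binding protein, by 1.43, and Pank1, an enzyme of coenzyme A synthesis, by 1.96. Acot2, a mitochondrial thioesterase, rose by 2.1, and Ucp3, an uncoupling protein paralogue of muscle and brown fat, by 0.98.

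The gene for the coactivator was present at a low level. Ppargc1a had 4.81, 5.69 and 5.77 FPKM in WT_8C libraries, against 1.92, 0.813 and 1.76 FPKM in WT_30C libraries (log2 difference 1.39 ± 0.19 (SE), adjusted p = 0.00101), with no overlap between the groups. Ppargc1b, its relative, had 9.64, 18 and 9.91 FPKM in WT_8C libraries, against 7.97, 7.43 and 8.01 FPKM in WT_30C libraries (log2 difference 0.57 ± 0.21 (SE), adjusted p = 0.0589), which missed the threshold. Prdm16, the transcription regulator that defines the brown and beige fate, had 2.67, 2.33 and 1.87 FPKM in WT_8C libraries, against 1.57, 2.03 and 1.18 FPKM in WT_30C libraries (log2 difference 0.35 ± 0.17 (SE), adjusted p = 0.118), and the groups overlapped. Ebf2, Zfp516, Tbx1, Eva1a and Ear2 were not called either, of which Ear2 had the largest difference (0.73, adjusted p = 0.232, limma). Tmem26, a surface marker of beige cells, was under the filter. The 1 called member that was lower was Ckmt2, a mitochondrial creatine kinase of muscle, with 1.68, 1.42 and 9.47 FPKM in WT_8C libraries, against 7.33, 13.8 and 20.6 FPKM in WT_30C libraries (log2 difference -1.77 ± 0.56 (SE), adjusted p = 0.0313). The groups overlapped for Ckmt2, and muscle markers were lower in WT_8C as given above; their part in its difference was not tested.

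**Figure D2:**
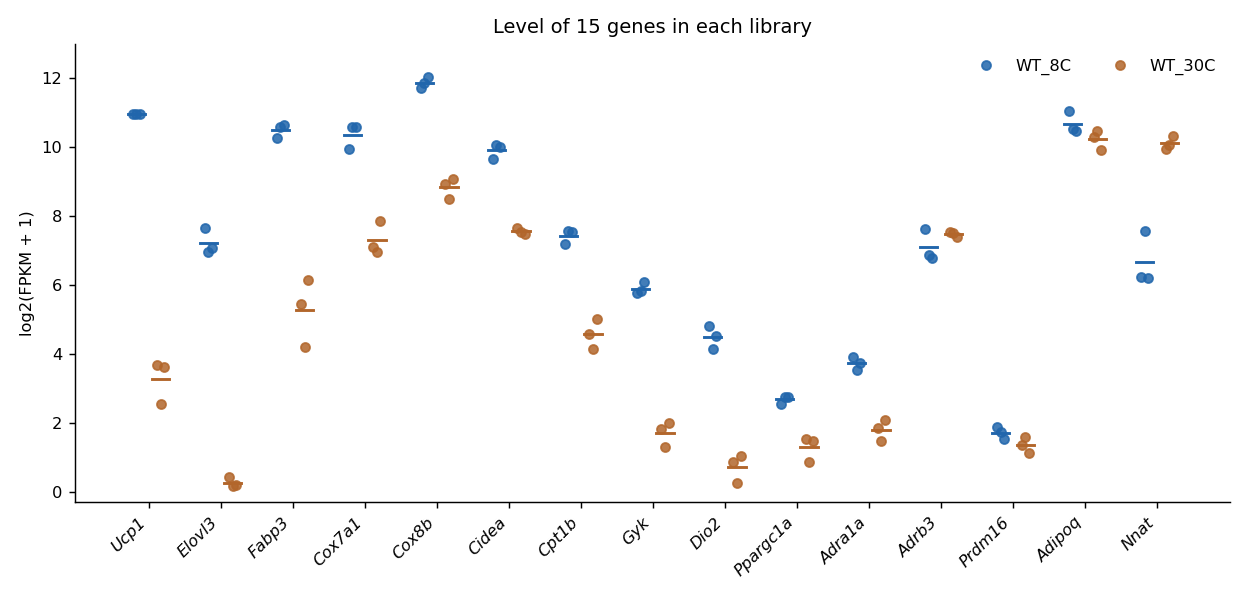
Level of 15 genes as log2(FPKM + 1) in each library, with WT_8C left of WT_30C for each gene; points are libraries and bars are group means (3 libraries each). Ucp1, Elovl3, Fabp3 and Dio2 show wide gaps between the groups, Adrb3 and Prdm16 overlap, and Nnat is lower in all 3 WT_8C libraries.

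Genes of adrenergic and cyclic AMP signalling moved unevenly. Of 26 tested, 13 were higher and 2 lower, with a median of 0.40 (log2). The receptor genes did not move together. Adrb3, which encodes the main beta-adrenergic receptor of mouse fat cells, had 197, 117 and 109 FPKM in WT_8C libraries, against 184, 183 and 166 FPKM in WT_30C libraries (log2 difference -0.38 ± 0.21 (SE), adjusted p = 0.162), and the groups overlapped. Adrb1 had 4.93, 7.26 and 7.43 FPKM in WT_8C libraries, against 2.25, 2.29 and 1.7 FPKM in WT_30C libraries (log2 difference 1.28 ± 0.17 (SE), adjusted p = 0.00083), and Adra1a, an alpha-1 receptor, had 14.1, 10.7 and 12.5 FPKM in WT_8C libraries, against 2.6, 1.77 and 3.2 FPKM in WT_30C libraries (log2 difference 1.94 ± 0.18 (SE), adjusted p = 0.000159). Both were higher in every WT_8C library.

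Downstream of the receptors, Gnas, which encodes the stimulatory G protein subunit, averaged 1131 ± 71.1 FPKM in WT_8C and 536 ± 34 FPKM in WT_30C (SD, n = 3 each; log2 difference 1.08 ± 0.11, SE, adjusted p = 0.000271). Adcy3, an adenylyl cyclase that makes cyclic AMP, had 41.9, 35.5 and 40.1 FPKM in WT_8C libraries, against 10.1, 11 and 9.47 FPKM in WT_30C libraries (log2 difference 1.84 ± 0.11 (SE), adjusted p = 3.27e-05). Of the protein kinase A subunits, Prkaca, Prkar2a and Prkar2b rose, by 1.16, 0.59 and 1.18 (log2). Akap1, which anchors the kinase at the mitochondrial surface, rose by 1.11. Genes that break down cyclic AMP were among the higher ones too: Pde4a rose by 0.90, Pde3b by 0.51 and Pde4d by 0.39. Creb1, the factor that protein kinase A phosphorylates, fell by 0.53 (log2). Pde3b and Pde4d lost their call in 5 of the 6 fits that left out 1 library and Creb1 in 4.

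Genes of thyroid hormone and retinoid action were mostly higher, 12 of 15 tested, and 2 were lower. Dio2, the deiodinase that turns thyroxine into the active hormone inside the cell, had 27.2, 16.8 and 22 FPKM in WT_8C libraries, against 0.828, 0.192 and 1.07 FPKM in WT_30C libraries (log2 difference 3.77 ± 0.24 (SE), adjusted p = 3.99e-05). Every WT_8C value was above every WT_30C value, and at 30 °C the gene was near or below 1 FPKM. The RefSeq promoter of Dio2, from 250 bases before to 50 bases after the gene's start (chr12:90738989-90739288, minus strand, GRCm38.p6), is shown because it holds the 8-letter cyclic AMP response element, the site that the kinase's target factor reads. The element is in capitals and begins at position -95 from the start.

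Dio2: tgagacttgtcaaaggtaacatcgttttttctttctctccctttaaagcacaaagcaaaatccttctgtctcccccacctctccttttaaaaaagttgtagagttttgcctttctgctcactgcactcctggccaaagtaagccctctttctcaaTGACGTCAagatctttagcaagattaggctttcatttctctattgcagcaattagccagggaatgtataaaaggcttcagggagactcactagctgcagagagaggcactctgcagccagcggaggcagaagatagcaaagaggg

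The element searched was TGACGTCA, which reads the same on both strands. It was found in 339 of the 9640 promoters of genes tested (3.52%), in 69 of 2300 promoters of genes called higher (3%) and in 549 of all 27025 promoters (2.03%). A match describes these letters and not a site in use, and the share among genes called higher was no larger than among all genes tested. Of the 77 genes with a promoter that rose by at least 2 (log2), 4 held the element (5.19%). Among the other members, Thrsp, a thyroid-hormone responsive gene of lipogenesis, had 4812, 3615 and 4444 FPKM in WT_8C libraries, against 1641, 1781 and 961 FPKM in WT_30C libraries (log2 difference 1.59 ± 0.24 (SE), adjusted p = 0.0014). Thrb, a thyroid hormone receptor gene, and Slc16a10, a transporter gene, rose by 0.66 and 0.77 (log2). Aldh1a1, which makes retinoic acid, rose by 1.38, and the retinoid receptor genes Rxrg and Rarb by 1.13 and 0.64, while Rara fell by 0.47 and Rdh5 by 0.74.

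Among 28 transcription regulators of beige and fat cell identity, 9 were higher, 3 lower and 16 not called, a median of 0.18 (log2); without WT_8C replicate 2, 5 were lower. Several, but not all, nuclear receptor genes of the PPAR and ERR families rose. Esrra, which encodes ERRalpha, had 124, 142 and 135 FPKM in WT_8C libraries, against 54.3, 63.2 and 49.9 FPKM in WT_30C libraries (log2 difference 1.25 ± 0.12 (SE), adjusted p = 0.00017). Ppara rose by 1.12, Esrrg by 0.86 and Pparg by 0.80, while Ppard and Esrrb were not among the genes called. Tfb2m, a factor of mitochondrial transcription, rose by 0.87. Among other regulators of mitochondrial genes, Nrf1 had 7.7, 8.11 and 8.45 FPKM in WT_8C libraries, against 12.8, 10.7 and 13.4 FPKM in WT_30C libraries (log2 difference -0.54 ± 0.12 (SE), adjusted p = 0.00668), and Gabpb1 fell by 0.61. Tfam, which packages mitochondrial DNA, had 12.1, 11.1 and 13.8 FPKM in WT_8C libraries, against 12.2, 10.4 and 12 FPKM in WT_30C libraries (log2 difference 0.08 ± 0.12 (SE), adjusted p = 0.594), with overlapping groups. Gabpa, which encodes the DNA-binding partner of the Gabpb1 product, rose by 0.41, a call that was lost without WT_8C replicate 3, without WT_30C replicate 2 and with equal FPKM sums.

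Genes of lipolysis and of the lipid droplet rose, 21 of 27 tested, with 2 lower and a median of 1.13 (log2). Pnpla2, which encodes the first triglyceride lipase ATGL, had 2083, 1313 and 1485 FPKM in WT_8C libraries, against 676, 774 and 579 FPKM in WT_30C libraries (log2 difference 1.25 ± 0.19 (SE), adjusted p = 0.00147). Its activator gene Abhd5 rose by 1.25 and its inhibitor gene G0s2 by 1.52, and Mgll, the last lipase of the pathway, by 1.64. Lipe, the hormone-sensitive lipase, had 1019, 835 and 745 FPKM in WT_8C libraries, against 729, 822 and 587 FPKM in WT_30C libraries (log2 difference 0.28 ± 0.17 (SE), adjusted p = 0.193) and was not called. Of the droplet coat genes, Plin5, of the oxidative droplet, had 74.1, 78.9 and 82.6 FPKM in WT_8C libraries, against 18, 16.5 and 16.4 FPKM in WT_30C libraries (log2 difference 2.15 ± 0.10 (SE), adjusted p = 1.11e-05) and Plin2 rose by 1.93, and Plin1, of the large fat cell droplet, by 0.70. The lower ones were Fitm1 (-1.64), a droplet gene of skeletal muscle, and Aqp3 (-0.78), a water and glycerol channel. Lpl, which frees fatty acids from blood lipoproteins, had 2703, 1451 and 1708 FPKM in WT_8C libraries, against 995, 933 and 688 FPKM in WT_30C libraries (log2 difference 1.13 ± 0.24 (SE), adjusted p = 0.00639), and Gpihbp1, which holds that enzyme on capillaries, rose by 0.59.

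Genes that build triglyceride rose at the same time. Of 17 tested, 12 were higher and none was called lower, a median of 1.07 (log2). Gyk, the glycerol kinase that lets a fat cell reuse glycerol, had 53.5, 55.6 and 67.2 FPKM in WT_8C libraries, against 2.55, 1.47 and 2.98 FPKM in WT_30C libraries (log2 difference 4.19 ± 0.19 (SE), adjusted p = 1.11e-05). Gpd1, which makes glycerol phosphate from glucose, had 2079, 2064 and 2677 FPKM in WT_8C libraries, against 571, 626 and 372 FPKM in WT_30C libraries (log2 difference 2.14 ± 0.21 (SE), adjusted p = 0.00021), and its mitochondrial partner Gpd2 rose by 2.06. Agpat2, an acyltransferase of the second step, rose by 2.65, Gpam of the first step by 1.9, and Dgat2 and Dgat1 of the last step by 1.07 and 0.75. Pck1, the glyceroneogenic enzyme, had 1619, 1036 and 1100 FPKM in WT_8C libraries, against 1233, 1147 and 929.8 FPKM in WT_30C libraries (log2 difference 0.16 ± 0.19 (SE), adjusted p = 0.511) and overlapped. Levels of breakdown and of synthesis genes were therefore both up in the same 3 libraries.

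In the lipogenesis list 13 of 21 tested genes were higher and none was called lower, a median of 1.17 (log2). Here WT_30C replicate 3 stood below its group. Fasn, the fatty acid synthase, had 1840, 2078 and 1975 FPKM in WT_8C libraries, against 958, 1394 and 297 FPKM in WT_30C libraries (log2 difference 1.42 ± 0.48 (SE), adjusted p = 0.04), and the call was lost when any 1 of 4 libraries was left out (highest adjusted p 0.0845, limma). Acly, which supplies the acetyl-CoA, had 534, 779 and 686 FPKM in WT_8C libraries, against 291, 389.9 and 73.8 FPKM in WT_30C libraries, and Acaca, the first committed enzyme, had 206, 255 and 260.1 FPKM in WT_8C libraries, against 155, 194 and 55.3 FPKM in WT_30C libraries (log2 difference 1.0 ± 0.40 (SE), adjusted p = 0.0704), not called. Acacb, the mitochondrial acetyl-CoA carboxylase, rose by 1.18 and Me1, which makes NADPH, by 1.55. Elovl6 had an adjusted p of 0.0488 and lost its call in 5 of the 6 fits that left out 1 library. Srebf1, a regulator of the pathway, had 119, 157 and 137 FPKM in WT_8C libraries, against 119, 145 and 98.6 FPKM in WT_30C libraries (log2 difference 0.20 ± 0.16 (SE), adjusted p = 0.343), whereas Mlxipl, which encodes ChREBP, rose by 0.63. Scd1, the main desaturase, was listed at 0 in all 3 WT_8C libraries and at 3348, 3826 and 1200 FPKM in WT_30C libraries. A 0 in this kind of file can be a failed estimate, so Scd1 was left out of the tests and no fold is given; Scd2 had 113, 79.9 and 101 FPKM in WT_8C libraries, against 36.7, 45.1 and 34.4 FPKM in WT_30C libraries (log2 difference 1.31 ± 0.15 (SE), adjusted p = 0.000491).

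Genes of cholesterol synthesis and uptake were higher in 17 of 25 tested, with 2 lower. Hmgcs1, the synthase at the start of the pathway, had 66.5, 70.4 and 55.1 FPKM in WT_8C libraries, against 17.2, 15.2 and 18.8 FPKM in WT_30C libraries (log2 difference 1.84 ± 0.13 (SE), adjusted p = 5.88e-05), and Insig1, which holds the pathway's regulator in check, rose by 2.08. Srebf2, that regulator, fell by 0.58 (log2).

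Fatty acid oxidation genes rose nearly throughout. Of 41 genes for uptake, activation and mitochondrial oxidation, 36 were higher and 3 lower, a median of 1.44 (log2). Fabp3, the heart-type fatty acid binding protein (chr4:130308595-130315463, plus strand, GRCm38), had 1233, 1548 and 1605 FPKM in WT_8C libraries, against 42.4, 17.5 and 70.5 FPKM in WT_30C libraries (log2 difference 5.24 ± 0.42 (SE), adjusted p = 0.000104). Slc25a20, the carnitine carrier of the inner membrane, had 306, 282 and 314 FPKM in WT_8C libraries, against 58.8, 49.1 and 45.3 FPKM in WT_30C libraries (log2 difference 2.54 ± 0.12 (SE), adjusted p = 1.33e-05). Etfdh, which passes the electrons of fatty acid oxidation to coenzyme Q, had 207, 209 and 215 FPKM in WT_8C libraries, against 42.3, 38.7 and 30.9 FPKM in WT_30C libraries (log2 difference 2.48 ± 0.13 (SE), adjusted p = 2.07e-05). None of these 3 showed any overlap. The 4 acyl-CoA dehydrogenase genes Acadvl, Acadl, Acadm and Acads rose by 2.01, 1.99, 1.87 and 1.44, from the longest chains to the shortest, and the trifunctional protein genes Hadha and Hadhb by 2.08 and 1.79. Cpt1a, the liver-type isoform of the entry enzyme, had 16.3, 20.4 and 20.5 FPKM in WT_8C libraries, against 17.2, 15.4 and 16.3 FPKM in WT_30C libraries (log2 difference 0.21 ± 0.12 (SE), adjusted p = 0.18), with overlap. Among the lower genes were Ucp2, an uncoupling protein paralogue (-0.66), and the ketone body enzyme gene Bdh1 (-0.88).

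Peroxisomal genes followed, with 32 of 39 higher and 1 lower, a median of 0.92 (log2). Acaa1b, a peroxisomal thiolase, had 119.9, 111 and 115 FPKM in WT_8C libraries, against 13.7, 14.8 and 6.9 FPKM in WT_30C libraries (log2 difference 3.25 ± 0.24 (SE), adjusted p = 7.99e-05), and Ehhadh, the bifunctional enzyme of the same pathway, had 202, 139 and 142 FPKM in WT_8C libraries, against 24.1, 21.5 and 17.7 FPKM in WT_30C libraries (log2 difference 2.86 ± 0.17 (SE), adjusted p = 3.36e-05). Acaa1b and Acaa1a are close copies, and the counting could split reads between them; Acaa1a rose by 0.46. The importer gene Abcd3 rose by 1.97 and catalase (Cat) by 1.35. Of the peroxin genes, which build the organelle, Pex14, Pex16, Pex19, Pex11a and Pex3 rose by between 1.13 and 1.33.

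The tricarboxylic acid cycle rose almost in full, with 21 of 24 genes higher and 1 lower, a median of 1.25 (log2). Idh3a, the catalytic subunit gene of the NAD-linked isocitrate dehydrogenase, had 388, 363 and 409 FPKM in WT_8C libraries, against 81.4, 77.7 and 70.9 FPKM in WT_30C libraries (log2 difference 2.32 ± 0.10 (SE), adjusted p = 1.11e-05). Citrate synthase (Cs) had 564, 552 and 635 FPKM in WT_8C libraries, against 192, 183 and 174 FPKM in WT_30C libraries (log2 difference 1.66 ± 0.10 (SE), adjusted p = 3.88e-05), and Suclg1 rose by 1.91 and Mdh2 by 1.52. No called member of the list had overlapping groups, which was the rule among all called genes. At the entry from glycolysis, 11 of 14 genes of pyruvate dehydrogenase and its regulators were higher and 1 lower. Dlat, a core subunit, rose by 2.06, and the pyruvate carrier genes Mpc1 and Mpc2 by 1.74 and 2.15. The kinase gene Pdk4, whose product shuts the complex, had 344, 406 and 275 FPKM in WT_8C libraries, against 80.1, 36.2 and 85.4 FPKM in WT_30C libraries (log2 difference 2.41 ± 0.31 (SE), adjusted p = 0.000717), so the complex and its inhibitor rose together. Branched-chain amino acid breakdown had 22 of 24 genes higher and none called lower, a median of 0.97: Dbt, a subunit of the committed dehydrogenase, rose by 1.48, Pcca of propionyl-CoA carboxylase by 1.71 and the mitochondrial carrier Slc25a44 by 0.98.

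Respiratory chain genes rose almost without exception. All 36 tested genes of complex I were higher, with a median of 1.16 (log2), as were all 14 of complexes II and III and cytochrome c, with a median of 1.44. Of cytochrome c oxidase genes 13 of 16 were higher and 1 lower, and of ATP synthase genes 14 of 17 were higher and 1 lower. Within complex I the differences lay between 0.54 (Ndufa2) and 1.87 (Ndufb6), and Ndufs5 was the 1 member whose groups overlapped. Complex I gene Ndufs1 had 145, 136 and 138 FPKM in WT_8C libraries, against 58, 59.6 and 43.6 FPKM in WT_30C libraries (log2 difference 1.38 ± 0.13 (SE), adjusted p = 0.000198), complex III gene Uqcrc1 had 617, 638 and 620.4 FPKM in WT_8C libraries, against 211, 228 and 198 FPKM in WT_30C libraries (log2 difference 1.56 ± 0.10 (SE), adjusted p = 4.24e-05), and Cycs, which encodes cytochrome c, had 253, 224 and 291 FPKM in WT_8C libraries, against 64.3, 54.3 and 59.2 FPKM in WT_30C libraries (log2 difference 2.09 ± 0.12 (SE), adjusted p = 3.27e-05). The ATP synthase catalytic subunit gene Atp5b rose in step, with 2553, 2483 and 2608 FPKM in WT_8C libraries, against 945, 980.2 and 781 FPKM in WT_30C libraries (log2 difference 1.5 ± 0.13 (SE), adjusted p = 0.000131). Atpif1, which encodes the inhibitor of the synthase, was the lower member, with 16.1, 13.3 and 15.1 FPKM in WT_8C libraries, against 22.5, 17.8 and 24.7 FPKM in WT_30C libraries (log2 difference -0.51 ± 0.14 (SE), adjusted p = 0.0181), and its call was lost in 3 of the 6 fits that left out 1 library.

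Taken as 1 sum, the genes of these 5 complexes made up 9.74%, 10.4% and 11.4% of summed FPKM in WT_8C libraries, against 4.95%, 5.27% and 4.70% in WT_30C libraries. Ucp1 alone was 0.277%, 0.298% and 0.290% in WT_8C libraries, against 0.00183%, 0.000796% and 0.00178% in WT_30C libraries. As 1 sum, the genes of the 5 complexes thus already took 4.70% to 5.27% of summed FPKM at 30 °C. Ucp1 is a single gene, so its share cannot be set against that sum. The lower member of cytochrome c oxidase was Cox6a2, the heart and muscle isoform of subunit 6a, with 9.34, 13.1 and 38.4 FPKM in WT_8C libraries, against 36, 55.1 and 94.3 FPKM in WT_30C libraries (log2 difference -1.7 ± 0.50 (SE), adjusted p = 0.0232). Its groups overlapped, and muscle markers were lower in WT_8C; their part in its difference was not tested.

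**Figure D3:**
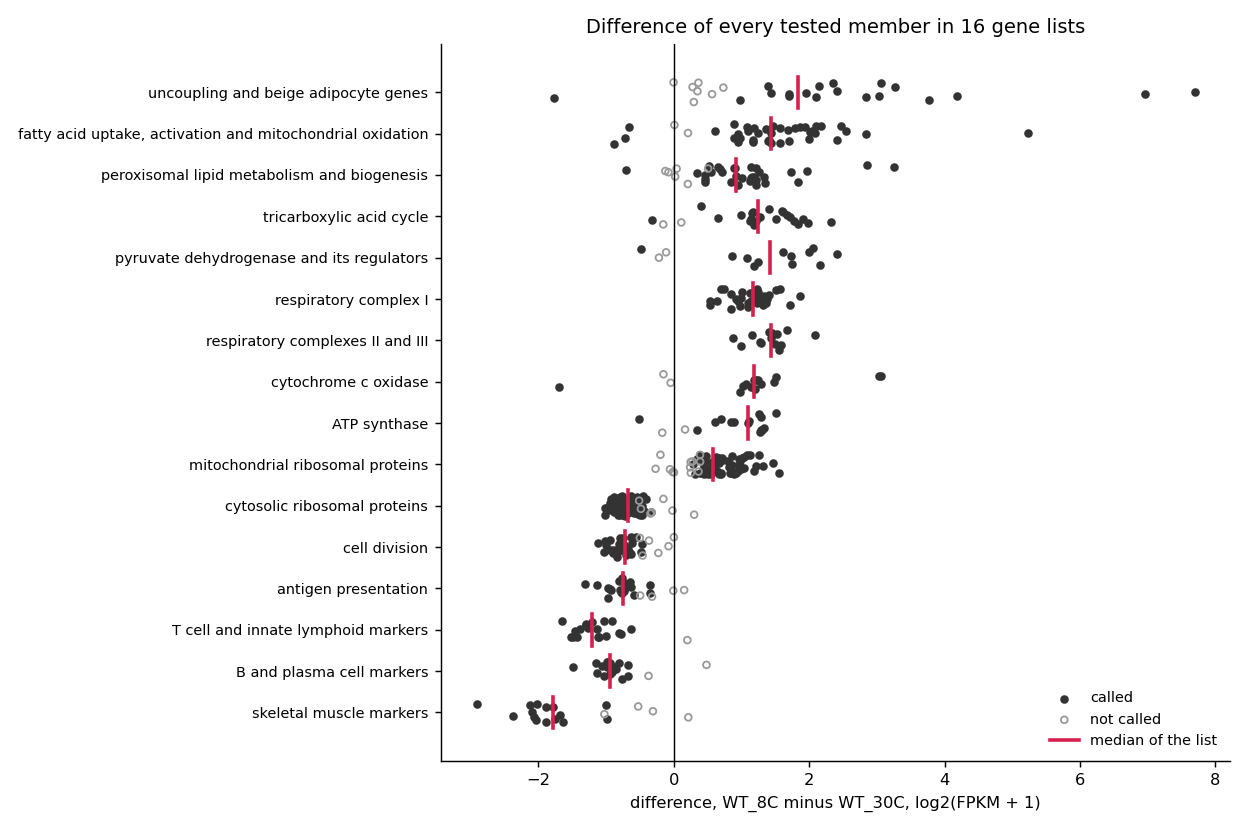
Difference between WT_8C and WT_30C, in log2(FPKM + 1), of every tested member of 16 lists; filled points were called at an adjusted p under 0.05 (limma), open points were not, and the red bar is the list's median. Members of complex I and complexes II and III all lie to the right of 0, cytosolic ribosomal proteins and lymphocyte markers almost all to the left, and Ucp1, Elovl3 and Fabp3 stand far to the right.

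The promoters of these genes were searched on both strands for the letters read by the factor NRF1, which are GCGC, then any 1 base, then TGCGC. Of the 67 members of the 5 complexes with a RefSeq promoter, 18 held it (26.9%), against 1090 of 9640 promoters of genes tested (11.3%) and 1402 of all 27025 (5.19%). By complex, ATP synthase had 7 of 14 (50%), and complexes II and III with cytochrome c had 3 of 9 (33.3%). Complex I had 7 of 32 (21.9%) and cytochrome c oxidase 1 of 12 (8.33%). The ATP synthase genes that held it include Atpif1, which was lower, and Atp5g2, which was not called. Over all genes called higher the share was 279 of 2300 (12.1%). Of the 77 genes with a promoter that rose by at least 2 (log2), 1 held it (1.3%). A raised share was therefore not a general trait of the cold response. The promoter of Uqcrc1 (chr9:108936398-108936697, plus strand, GRCm38.p6) is shown because it holds 2 such matches in capitals, beginning at positions 6 and 31 from the start, and that of Etfdh (chr3:79628718-79629017, minus strand) because the gene, described above, links fatty acid oxidation to this chain; its match begins at position -128. The promoter of Cycs (chr6:50566520-50566819, minus strand) is shown because it holds the cyclic AMP response element, which begins at position -169. No other element searched overlapped these matches.

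Uqcrc1: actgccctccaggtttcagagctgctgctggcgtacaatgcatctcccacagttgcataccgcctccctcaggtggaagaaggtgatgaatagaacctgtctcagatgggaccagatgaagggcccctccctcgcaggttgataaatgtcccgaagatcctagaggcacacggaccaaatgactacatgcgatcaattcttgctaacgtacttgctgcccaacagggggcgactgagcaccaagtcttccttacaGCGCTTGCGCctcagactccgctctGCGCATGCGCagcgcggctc
Etfdh: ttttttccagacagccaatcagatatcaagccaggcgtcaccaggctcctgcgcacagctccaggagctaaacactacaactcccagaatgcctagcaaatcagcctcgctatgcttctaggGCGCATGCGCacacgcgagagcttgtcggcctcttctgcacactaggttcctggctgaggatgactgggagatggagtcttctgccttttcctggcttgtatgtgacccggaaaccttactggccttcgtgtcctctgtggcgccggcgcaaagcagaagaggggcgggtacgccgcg
Cycs: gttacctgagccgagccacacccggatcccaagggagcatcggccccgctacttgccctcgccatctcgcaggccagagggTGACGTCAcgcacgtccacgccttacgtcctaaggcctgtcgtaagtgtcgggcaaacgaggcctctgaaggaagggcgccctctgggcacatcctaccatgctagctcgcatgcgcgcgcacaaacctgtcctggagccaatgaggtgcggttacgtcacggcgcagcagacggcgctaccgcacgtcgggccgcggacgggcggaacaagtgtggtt

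The letters read by the ERR receptors were searched as TNAAGGTCA on both strands, which 89 of 9640 promoters of genes tested held (0.923%). It was in 30 of 2300 promoters of genes called higher (1.3%) and in 23 of 2266 of genes called lower (1.02%). Of the 77 genes with a promoter that rose by at least 2 (log2), 4 held it (5.19%). The cyclic AMP response element was in 4 of the same 77 (5.19%). The windows of Ucp1, Cox7a1, Cox8b, Fabp3 and Atp5b held none of these elements.

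Lists of the making and upkeep of mitochondria were mostly higher. Of 76 mitochondrial ribosomal protein genes, 64 were higher and none was called lower, with a median of 0.57 (log2). Mrps36, also counted to the oxoglutarate dehydrogenase complex, rose by 1.47 and Mrpl12 by 1.09. Protein import, chaperone and protease genes had 29 of 37 higher and 2 lower, a median of 0.84. Timm10, a chaperone of the space between the membranes, had 108, 106 and 116 FPKM in WT_8C libraries, against 32.4, 32.2 and 31.9 FPKM in WT_30C libraries (log2 difference 1.74 ± 0.09 (SE), adjusted p = 2.14e-05), Grpel1 rose by 1.74 and Hspa9, the import motor, by 1.53. Tomm34 was 1 of the 2 lower members, with 24, 25.2 and 24.2 FPKM in WT_8C libraries, against 48.4, 44.1 and 57 FPKM in WT_30C libraries (log2 difference -0.99 ± 0.11 (SE), adjusted p = 0.000445). Coenzyme Q synthesis genes were higher in 10 of 13, with none called lower, led by Pdss1 (1.54) and Coq7 (1.46). Fusion and fission genes were higher in 11 of 18: Mtfp1, a fission protein gene, rose by 1.86, and the fusion genes Opa1 and Mfn2 by 1.0 and 0.98, while Dnm1l, the fission motor, had 21.4, 17.6 and 20.6 FPKM in WT_8C libraries, against 19.3, 16.4 and 18.8 FPKM in WT_30C libraries (log2 difference 0.12 ± 0.12 (SE), adjusted p = 0.414) and overlapped.

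Mitochondrial carrier genes were higher in 27 of 36 and lower in 3. Slc25a34, a carrier of the inner membrane, had 29, 26.5 and 29.6 FPKM in WT_8C libraries, against 0.487, 0.226 and 0.373 FPKM in WT_30C libraries (log2 difference 4.43 ± 0.12 (SE), adjusted p = 1.37e-06), the largest difference of the family, and no WT_30C library reached 1 FPKM. The adenine nucleotide carrier gene Slc25a5 rose by 1.43, the glutathione carrier gene Slc25a39 by 1.65, the coenzyme A carrier gene Slc25a42 by 1.77 and the peroxisomal carrier gene Slc25a17 by 2.14. Heme and iron genes were higher in 16 of 25 and lower in 2. Alas1, the first enzyme of heme synthesis, had 158, 154 and 146 FPKM in WT_8C libraries, against 83, 102 and 75.3 FPKM in WT_30C libraries (log2 difference 0.82 ± 0.13 (SE), adjusted p = 0.0015), Fech, the last one, rose by 1.09, and Hmox1, which breaks heme down, by 1.11.

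Heat can also be made by cycles that spend ATP, and the list of creatine and calcium cycling split. Of 17 tested, 5 were higher and 7 lower; its median was 0.06 (log2), and -0.08 when libraries were scaled to the same FPKM sum. Ckb, the creatine kinase of thermogenic fat, had 120.2, 131 and 135 FPKM in WT_8C libraries, against 24, 28.8 and 25.9 FPKM in WT_30C libraries (log2 difference 2.26 ± 0.11 (SE), adjusted p = 1.33e-05). Alpl, the phosphatase of the creatine cycle, had 11, 9.9 and 8.83 FPKM in WT_8C libraries, against 1.88, 1.7 and 2.21 FPKM in WT_30C libraries (log2 difference 1.9 ± 0.13 (SE), adjusted p = 5.72e-05). Letmd1, a mitochondrial gene that brown fat needs for thermogenesis, had 139.9, 165 and 190.4 FPKM in WT_8C libraries, against 33.3, 32 and 34.7 FPKM in WT_30C libraries (log2 difference 2.26 ± 0.13 (SE), adjusted p = 3.02e-05). In these 3 genes the groups did not overlap. Atp2a2, the calcium pump of most cells, rose by 1.17. The 7 lower members were Ckm, Ckmt2, Atp2a1, Ryr1, Gatm, Atp2a3 and Itpr3. Gatm, the first enzyme of creatine synthesis, had 4.65, 5.09 and 3.49 FPKM in WT_8C libraries, against 6.79, 10.1 and 16 FPKM in WT_30C libraries (log2 difference -1.08 ± 0.26 (SE), adjusted p = 0.0111). Ckm, the muscle creatine kinase, had 106, 241 and 234 FPKM in WT_8C libraries, against 483, 694 and 1418 FPKM in WT_30C libraries, and Atp2a1, the fast muscle calcium pump, had 62.2, 114 and 157 FPKM in WT_8C libraries, against 229, 299 and 556 FPKM in WT_30C libraries. Muscle markers fell in the same libraries, as given above, and their part was not tested.

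Genes of glucose use rose, with 30 of 43 genes for uptake, glycolysis and glycogen higher and 4 lower, a median of 0.88 (log2). Slc2a4, the insulin-responsive transporter, had 224, 178 and 194 FPKM in WT_8C libraries, against 85.7, 108 and 76.5 FPKM in WT_30C libraries (log2 difference 1.14 ± 0.15 (SE), adjusted p = 0.000746), while Slc2a1, the general transporter, had 11, 14.5 and 13.4 FPKM in WT_8C libraries, against 15.7, 12.5 and 17.4 FPKM in WT_30C libraries (log2 difference -0.21 ± 0.15 (SE), adjusted p = 0.273). Hk2 rose by 1.25, Pfkl by 1.59, Pgam1 by 1.93 and Slc16a1, a lactate and pyruvate transporter, by 1.8. Ldhb, the lactate dehydrogenase form of oxidative tissue, had 285, 268 and 280.3 FPKM in WT_8C libraries, against 64.4, 73.9 and 64.9 FPKM in WT_30C libraries (log2 difference 2.02 ± 0.10 (SE), adjusted p = 1.59e-05). Gys2, a glycogen synthase, had 45.4, 29.9 and 34.2 FPKM in WT_8C libraries, against 6.6, 5.84 and 1.55 FPKM in WT_30C libraries (log2 difference 2.86 ± 0.38 (SE), adjusted p = 0.000845), and Ppp1r3b, which targets a phosphatase to glycogen, rose by 2.82. The pentose phosphate genes G6pdx and Pgd rose by 1.95 and 1.57. All 4 lower members, Pgam2, Eno3, Pygm and Slc16a3, are forms typical of fast muscle. Muscle markers fell in the same libraries, and their part in these differences was not tested. In the insulin signalling list 8 of 22 were higher and 1 lower, and without WT_30C replicate 1 the higher ones were 5; Insr rose by 0.77.

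Within gene families the balance between members shifted, as ratios of FPKM show; FPKM is scaled per length. Ucp1 over Ucp2 was 8.65, 8.2 and 9.17 in WT_8C libraries, against 0.0298, 0.0134 and 0.0322 in WT_30C libraries. Cox8b over Cox8a was 1.39, 1.56 and 1.55 in WT_8C libraries, against 0.407, 0.277 and 0.454 in WT_30C libraries. Ucp1 and Cox8b were each the more abundant of their pair in all WT_8C libraries and the less abundant in all WT_30C libraries. Cpt1b over Cpt1a was 8.81, 9.18 and 8.97 in WT_8C libraries, against 1.34, 1.08 and 1.91 in WT_30C libraries. The Ldhb to Ldha ratio was 0.279, 0.265 and 0.253 in WT_8C libraries, against 0.0971, 0.11 and 0.117 in WT_30C libraries. None of these 4 ratios overlapped, though 3 libraries against 3 cannot reach a two-sided exact permutation p below 0.1. The Acacb to Acaca and Cox4i2 to Cox4i1 ratios overlapped.

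**Figure D4:**
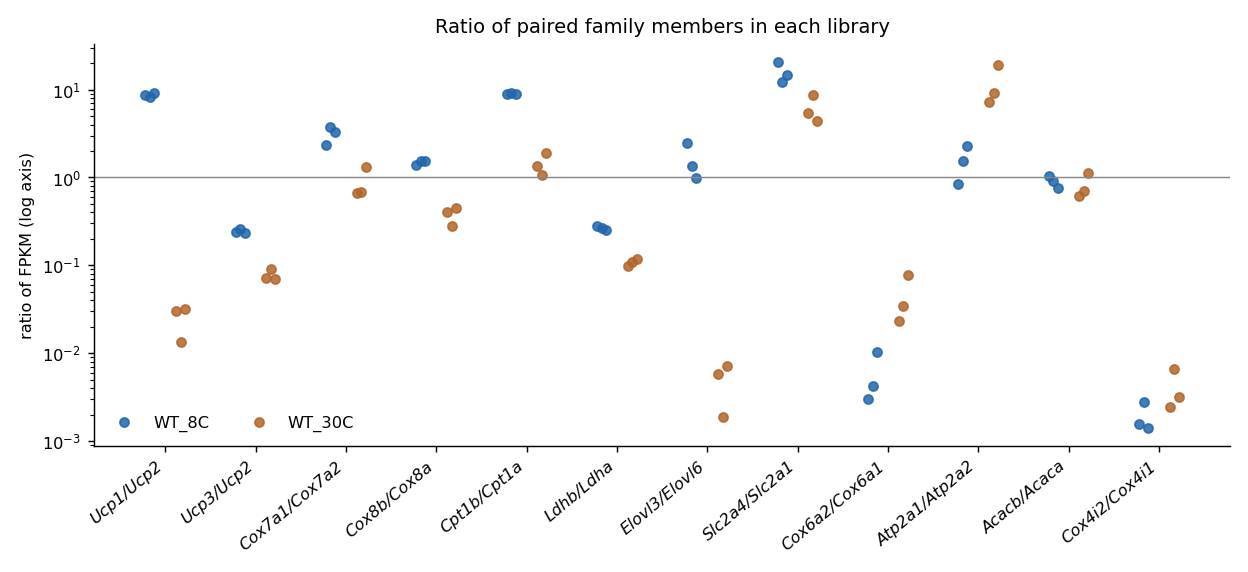
Ratio of FPKM between 2 members of a gene family in each library, on a log axis, with WT_8C left of WT_30C; points are libraries and the line marks a ratio of 1. Ucp1 over Ucp2, Cox8b over Cox8a and Elovl3 over Elovl6 are below 1 in all WT_30C libraries, the muscle form ratios Cox6a2 over Cox6a1 and Atp2a1 over Atp2a2 are lower in WT_8C, and the last 2 pairs overlap.

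Redox and protein handling lists moved to different extents. Of 37 glutathione, thioredoxin and antioxidant genes, 24 were higher and 1 lower. Sod2, the mitochondrial superoxide dismutase, had 117, 103 and 132 FPKM in WT_8C libraries, against 37.6, 31.4 and 37.4 FPKM in WT_30C libraries (log2 difference 1.69 ± 0.13 (SE), adjusted p = 7.99e-05), and the mitochondrial peroxidase gene Prdx3 rose by 1.51. The lower one was Gpx3, the secreted glutathione peroxidase, with 565, 481 and 421 FPKM in WT_8C libraries, against 1170, 1045 and 1362 FPKM in WT_30C libraries (log2 difference -1.29 ± 0.15 (SE), adjusted p = 0.000472). Proteasome genes were higher in 24 of 33, with a small median of 0.37 (log2); without WT_8C replicate 1, WT_8C replicate 3 or WT_30C replicate 3 the count was 15, and with equal FPKM sums 14. Nfe2l1, the activator of proteasome genes in brown fat, rose by 0.81.

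In the list of endoplasmic reticulum chaperones, which holds the pathway of the gene targeted in the series, 9 of 37 were higher and 5 lower, the higher share near that of all genes and the lower share below it, with a median of -0.03 (log2). Without WT_30C replicate 1 the lower ones were 2, without WT_8C replicate 1 or WT_30C replicate 3 they were 3, and with equal FPKM sums they were 12. Ern1 rose by 0.60 ± 0.13 (SE, adjusted p = 0.00618). Its splicing target Xbp1 had 73.1, 90.7 and 71.7 FPKM in WT_8C libraries, against 89.5, 104 and 97 FPKM in WT_30C libraries (log2 difference -0.30 ± 0.12 (SE), adjusted p = 0.0699), and Hspa5, the chaperone BiP, had 156, 140.1 and 143 FPKM in WT_8C libraries, against 124, 110.4 and 112 FPKM in WT_30C libraries (log2 difference 0.34 ± 0.10 (SE), adjusted p = 0.0229), a call lost in 4 of the 6 fits that left out 1 library and with equal FPKM sums. Dnajb9 was the member that moved most, with 50.9, 38.9 and 44.2 FPKM in WT_8C libraries, against 19.4, 16.7 and 19.7 FPKM in WT_30C libraries (log2 difference 1.22 ± 0.13 (SE), adjusted p = 0.000278). Bloc1s1, whose RNA IRE1alpha is known to cut, rose by 0.49.

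Genes of the ATF4 response were higher in 13 of 28 and lower in 4 (2 without WT_8C replicate 1, WT_30C replicate 1 or WT_30C replicate 3). Atf5, a factor of the mitochondrial stress response, had 280.2, 302 and 342 FPKM in WT_8C libraries, against 85.6, 87 and 68.3 FPKM in WT_30C libraries (log2 difference 1.93 ± 0.13 (SE), adjusted p = 5.24e-05), Asns, which makes asparagine, rose by 1.79 and Vldlr by 1.9. Fgf21, a hormone secreted by stressed liver and by thermogenic fat, had 4.33, 2.31 and 6.75 FPKM in WT_8C libraries, against 0.265, 0 and 0 FPKM in WT_30C libraries (log2 difference 2.25 ± 0.29 (SE), adjusted p = 0.000697). Atf4 itself had 105, 135 and 124 FPKM in WT_8C libraries, against 98.4, 98.1 and 136 FPKM in WT_30C libraries (log2 difference 0.14 ± 0.16 (SE), adjusted p = 0.492), and Ddit3 was not called (-0.06). Cytosolic heat shock genes had 6 of 21 higher and 2 lower, with Hspb8 rising by 1.09. Circadian clock genes had 5 of 18 higher and 1 lower (3 higher without WT_8C replicate 3, WT_30C replicate 1 or WT_30C replicate 3), and the core gene Arntl had 3.17, 3.73 and 3.55 FPKM in WT_8C libraries, against 3.47, 3.82 and 4.35 FPKM in WT_30C libraries (log2 difference -0.12 ± 0.13 (SE), adjusted p = 0.458).

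Cytochrome P450 genes were higher in 8 of 19 and none was called lower. Cyp2b10, known best as a drug-metabolising enzyme of liver, was at 91.1, 4.91 and 35.9 FPKM in WT_8C libraries and listed at 0 in all 3 WT_30C libraries (adjusted p = 0.00245, limma). The WT_8C values spread widely. Cyp4b1 had 107, 73 and 86.4 FPKM in WT_8C libraries, against 25.1, 25.7 and 21.7 FPKM in WT_30C libraries (log2 difference 1.82 ± 0.15 (SE), adjusted p = 0.000113). Immediate early genes, which answer within minutes to handling and signals, had 2 of 22 higher and 1 lower. WT_8C replicate 2 stood apart here, and without it 13 were lower; without WT_8C replicate 3, 4 were higher. Egr1 had 15.5, 267 and 7.36 FPKM in WT_8C libraries, against 27, 20.6 and 19 FPKM in WT_30C libraries, and Fos had 3.21, 85.7 and 1.74 FPKM in WT_8C libraries, against 14.7, 8.75 and 6.52 FPKM in WT_30C libraries. Ier3 was higher in each WT_8C library, with 6.7, 16.8 and 21.3 FPKM in WT_8C libraries, against 2.98, 2.71 and 4.51 FPKM in WT_30C libraries (log2 difference 1.74 ± 0.36 (SE), adjusted p = 0.00555).

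Several lists fell nearly throughout, though most of the 2986 genes called lower are in none of the lists. Of 75 cytosolic ribosomal protein genes, 68 were lower and none was called higher, a median of -0.68 (log2). Together they made up 10.8%, 13.8% and 12.9% of summed FPKM in WT_8C libraries, against 22.4%, 20.5% and 23.3% in WT_30C libraries. Rplp1, a stalk protein, had 2701, 3428 and 3562 FPKM in WT_8C libraries, against 5812, 4946 and 6765 FPKM in WT_30C libraries (log2 difference -0.85 ± 0.18 (SE), adjusted p = 0.00532), and Rps24 had 1019, 1134 and 1056 FPKM in WT_8C libraries, against 2276, 1884 and 2350 FPKM in WT_30C libraries (log2 difference -1.01 ± 0.13 (SE), adjusted p = 0.000723). Ribosomal protein genes have many near-identical pseudogenes and copies, so single members are uncertain: Rps27rt and Rps27 share almost all their sequence, and their sum was 4569, 6151 and 5465 FPKM in WT_8C libraries, against 10250, 7614 and 9190 FPKM in WT_30C libraries. Lymphocyte markers fell in the same libraries, and their part in the ribosomal difference was not tested.

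Lymphocyte genes fell almost as 1 block. Of 21 markers of T cells and innate lymphoid cells, 20 were lower, a median of -1.21 (log2), and of 19 markers of B and plasma cells, 17 were lower, a median of -0.94. The T cell receptor component gene Cd3e had 17.7, 23.3 and 24.1 FPKM in WT_8C libraries, against 61.7, 45.6 and 67.7 FPKM in WT_30C libraries (log2 difference -1.38 ± 0.17 (SE), adjusted p = 0.000661). Lat, an adaptor of that receptor, had 44.2, 53 and 57.3 FPKM in WT_8C libraries, against 163, 134 and 195 FPKM in WT_30C libraries (log2 difference -1.64 ± 0.16 (SE), adjusted p = 0.000191). Pax5, the B cell identity factor, had 24.7, 28.8 and 24.4 FPKM in WT_8C libraries, against 80.3, 64.7 and 79.2 FPKM in WT_30C libraries (log2 difference -1.49 ± 0.12 (SE), adjusted p = 0.000115). For each of these 3, every WT_8C library was below every WT_30C library. The inguinal depot surrounds a lymph node, and the chemokine genes of lymphoid tissue moved the same way: Ccl19 had 115, 151 and 155 FPKM in WT_8C libraries, against 298, 223 and 284 FPKM in WT_30C libraries (log2 difference -0.93 ± 0.16 (SE), adjusted p = 0.00235), Ccl21a fell by 0.74 and their receptor gene Ccr7 by 1.29 (log2). How much of the node each sample held was not tested.

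Antigen presentation genes were lower in 20 of 24, with none called higher and a median of -0.75 (log2); without WT_30C replicate 1 the count was 12. H2-Ob, a class II chaperone of B cells, had 35.4, 54.9 and 55.7 FPKM in WT_8C libraries, against 134, 91.9 and 141 FPKM in WT_30C libraries (log2 difference -1.32 ± 0.22 (SE), adjusted p = 0.00202). The class II genes H2-Aa, H2-Ab1 and H2-Eb1 fell by 0.76, 0.71 and 0.76, and the immunoproteasome genes Psmb8 and Psmb9 by 0.63 and 0.80. B2m, the light chain of class I, had 2151, 1826 and 2163 FPKM in WT_8C libraries, against 2035, 1698 and 1790 FPKM in WT_30C libraries (log2 difference 0.15 ± 0.13 (SE), adjusted p = 0.372). Interferon response genes had 1 of 33 higher (6 without WT_30C replicate 3) and 4 lower (2 lower without WT_8C replicate 1, WT_8C replicate 2 or WT_30C replicate 1; 11 lower with equal FPKM sums), fewer than the share of all genes; their median was 0.07 (log2), and -0.05 with equal FPKM sums.

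Cell division genes were lower in 32 of 38, with none called higher and a median of -0.73 (log2). Mki67, the proliferation marker, had 3.25, 3.51 and 3.7 FPKM in WT_8C libraries, against 11.1, 6.65 and 9.09 FPKM in WT_30C libraries (log2 difference -1.12 ± 0.17 (SE), adjusted p = 0.00144). The replication helicase genes Mcm2 to Mcm7 fell by between 0.48 (Mcm7) and 0.86 (Mcm3). Lymphocyte markers fell in the same libraries, and their part in the result was not tested.

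**Figure D5:**
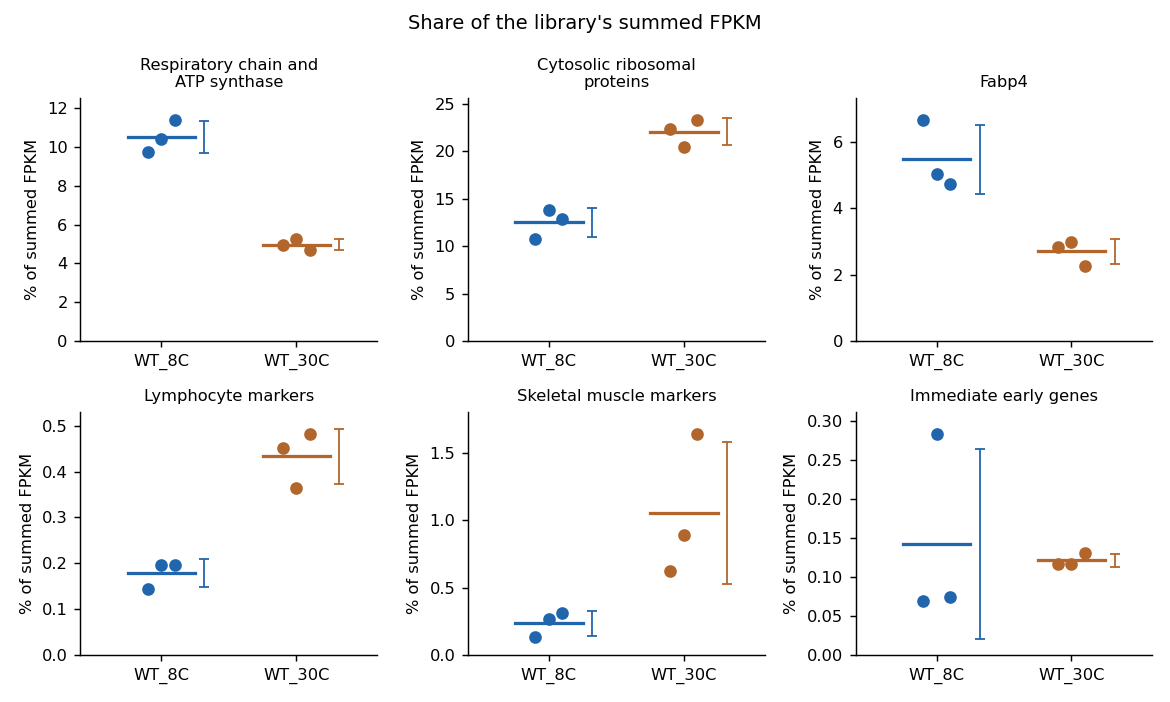
Share of the summed FPKM of each library, in percent, taken by 6 gene groups; points are libraries, WT_8C left of WT_30C, with the mean as a bar and the SD beside it (3 libraries each). Respiratory chain genes and Fabp4 are higher in every WT_8C library, ribosomal, lymphocyte and muscle genes lower, and for immediate early genes WT_8C replicate 2 stands at 0.283%, above the other 5.

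Neutrophil and mast cell markers went the other way from lymphocytes, while the summed FPKM of macrophage markers overlapped between the groups. Of 16 neutrophil and mast cell markers listed, 10 were tested. Of these 8 were higher, a median of 1.6 (log2), and with a filter at 5 FPKM, 3 were. S100a8, an alarmin of neutrophils, had 19.9, 58.3 and 33.4 FPKM in WT_8C libraries, against 1.72, 0.987 and 0.506 FPKM in WT_30C libraries (log2 difference 4.12 ± 0.36 (SE), adjusted p = 0.000146), and its partner S100a9 had 16.3, 41.8 and 10.1 FPKM in WT_8C libraries, against 0.949, 2.05 and 0 FPKM in WT_30C libraries (log2 difference 3.48 ± 0.53 (SE), adjusted p = 0.00142). The mast cell chymase gene Cma1 had 4.88, 11 and 8.1 FPKM in WT_8C libraries, against 0.461, 1.37 and 2.25 FPKM in WT_30C libraries (log2 difference 1.94 ± 0.33 (SE), adjusted p = 0.00236). Groups did not overlap for these 3, but they passed the filter only through their WT_8C values. The filter thus favoured markers higher in WT_8C, and the count and median of this list are partly set by it. Other neutrophil markers (Retnlg, Ngp and Mpo) were under the filter. Macrophage markers were higher in 12 of 19, but the count was 5 with equal FPKM sums, 2 without WT_30C replicate 1, 4 without WT_8C replicate 3, 5 without WT_8C replicate 2 and 6 without WT_30C replicate 3. Cd163, of resident macrophages, had 8.79, 15.5 and 11 FPKM in WT_8C libraries, against 5.0, 6.76 and 3.46 FPKM in WT_30C libraries (log2 difference 1.08 ± 0.24 (SE), adjusted p = 0.00796), whereas Lyz2 had 251, 632 and 387 FPKM in WT_8C libraries, against 431, 373 and 479 FPKM in WT_30C libraries (log2 difference -0.11 ± 0.29 (SE), adjusted p = 0.778). WT_8C replicate 2 was the highest library for each of the 12 higher markers but Timd4.

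Chemokine and cytokine genes had 5 of 27 higher and 10 lower. Ccl8, a chemokine of macrophages, had 87.4, 115 and 188 FPKM in WT_8C libraries, against 20.4, 23 and 25.6 FPKM in WT_30C libraries (log2 difference 2.38 ± 0.25 (SE), adjusted p = 0.000278), and Ccl5, a chemokine of T cells, had 142, 206 and 161 FPKM in WT_8C libraries, against 664, 552 and 599 FPKM in WT_30C libraries (log2 difference -1.84 ± 0.15 (SE), adjusted p = 0.000118). Of 22 acute phase and complement genes, 9 were higher and none was called lower. Saa3, a serum amyloid A protein made in fat, had 10, 11 and 42.6 FPKM in WT_8C libraries, against 0.665, 0 and 0.202 FPKM in WT_30C libraries (log2 difference 3.83 ± 0.48 (SE), adjusted p = 0.00068), and Lcn2, lipocalin 2, rose by 2.64. Lysosome and scavenging genes were higher in 16 of 36 and lower in 4 (1 without WT_30C replicate 1, 2 without WT_8C replicate 1). The scavenger receptor gene Marco had 26.6, 32.9 and 52.6 FPKM in WT_8C libraries, against 2.43, 8.35 and 5.61 FPKM in WT_30C libraries (log2 difference 2.63 ± 0.37 (SE), adjusted p = 0.00102), Cd5l, a secreted macrophage protein, rose by 2.36 and Ctsd, the main lysosomal aspartic protease, by 1.31.

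Markers of fat cells themselves rose moderately, 11 of 20 higher with none called lower and a median of 0.65 (log2). Fabp4, the fatty acid binding protein of fat cells, had 47880, 33980 and 32860 FPKM in WT_8C libraries, against 18300, 18070 and 14400 FPKM in WT_30C libraries (log2 difference 1.16 ± 0.22 (SE), adjusted p = 0.00354), which is 6.67%, 5.03% and 4.75% of summed FPKM in WT_8C libraries, against 2.84%, 3% and 2.27% in WT_30C libraries. Adipoq, which encodes adiponectin, had 2113, 1482 and 1431 FPKM in WT_8C libraries, against 1255, 1424 and 972 FPKM in WT_30C libraries (log2 difference 0.46 ± 0.20 (SE), adjusted p = 0.0905) and was not called. Cebpa, Cfd and Lipe were not called either. Among secreted signals, 13 of 25 were higher and 2 lower. Retn, resistin, had 3747, 1539 and 2270 FPKM in WT_8C libraries, against 1074, 936 and 745 FPKM in WT_30C libraries (log2 difference 1.37 ± 0.30 (SE), adjusted p = 0.00678) and Lep, leptin, had 88.9, 68.9 and 49.8 FPKM in WT_8C libraries, against 39.8, 43.3 and 27.3 FPKM in WT_30C libraries (log2 difference 0.88 ± 0.23 (SE), adjusted p = 0.0154). Agt, angiotensinogen, rose by 2.78, and Pm20d1, an enzyme that makes N-acyl amino acids, by 1.44. Bmp8b, a thermogenic signal of brown fat, had 1.01, 2.54 and 2.46 FPKM in WT_8C libraries, against 0.0233, 0 and 0 FPKM in WT_30C libraries (log2 difference 1.53 ± 0.23 (SE), adjusted p = 0.00129). With a filter at 5 FPKM in place of 1, the higher members were 6, since fewer of these genes were tested.

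The largest fall of a signal-list gene was that of Nnat, which encodes neuronatin, an imprinted membrane proteolipid. Nnat had 73.6, 188 and 72.4 FPKM in WT_8C libraries, against 992, 1077 and 1277 FPKM in WT_30C libraries (log2 difference -3.46 ± 0.34 (SE), adjusted p = 0.00021). The groups were far apart, with WT_8C replicate 2 the highest of its group. IGF, BMP and activin genes were higher in 15 of 30 and lower in 2, but 8 were higher without WT_30C replicate 1 and 9 without WT_30C replicate 3. Igfbp6 had 35.3, 103 and 53.6 FPKM in WT_8C libraries, against 11.3, 17.5 and 12.2 FPKM in WT_30C libraries (log2 difference 2.03 ± 0.34 (SE), adjusted p = 0.00231), and Ghr, the growth hormone receptor, rose by 1.04.

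Endothelial markers were higher in 10 of 16 and smooth muscle and pericyte markers in 8 of 12, with none called lower. Endothelial markers summed to 0.0716%, 0.0843% and 0.0719% of FPKM in WT_8C libraries, against 0.055%, 0.0624% and 0.0564% in WT_30C libraries, while the sums of smooth muscle and of progenitor markers overlapped between the groups. Cdh5, the cadherin of endothelium, had 56.6, 48.1 and 45.8 FPKM in WT_8C libraries, against 28.9, 30.3 and 29.3 FPKM in WT_30C libraries (log2 difference 0.74 ± 0.11 (SE), adjusted p = 0.00118), while Pecam1 had 57.7, 66 and 56.2 FPKM in WT_8C libraries, against 52.3, 53.5 and 57.2 FPKM in WT_30C libraries (log2 difference 0.14 ± 0.10 (SE), adjusted p = 0.297). Angiogenic factors and receptors were higher in 14 of 24 (9 with a filter at 5 FPKM) and lower in 2. Vegfa, the main growth factor of vessels, had 158, 154 and 163 FPKM in WT_8C libraries, against 113, 118 and 110.3 FPKM in WT_30C libraries (log2 difference 0.47 ± 0.09 (SE), adjusted p = 0.00389), and its receptor genes Flt1 and Kdr rose by 0.96 and 0.94. Progenitor and fibroblast markers were higher in 8 of 19 and lower in 2, and 5 were higher without WT_8C replicate 2 or WT_30C replicate 1. Pi16, of early progenitors, had 16.4, 84.8 and 48.6 FPKM in WT_8C libraries, against 5.49, 3.9 and 5.28 FPKM in WT_30C libraries (log2 difference 2.84 ± 0.49 (SE), adjusted p = 0.00243). Thy1, which T cells also express, fell by 1.19 (log2).

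Of 32 collagen and matrix genes, 15 were higher and 1 lower. Nid1, a linker protein of basement membranes, had 85, 76 and 69 FPKM in WT_8C libraries, against 29.3, 36.2 and 25.3 FPKM in WT_30C libraries (log2 difference 1.32 ± 0.15 (SE), adjusted p = 0.000359), and Col4a2 and Lamc1, of the same sheets, rose by 1.03 and 0.81. Of the fibrillar collagen genes, Col1a1 had 58.7, 114 and 47.9 FPKM in WT_8C libraries, against 61.6, 89.2 and 43.9 FPKM in WT_30C libraries and, like Col3a1, was not called, while Col5a1 and Col5a2 rose by 0.67 and 0.76 with overlapping groups; both calls were lost in 4 of the 6 fits that left out 1 library. Of 27 matrix protease, inhibitor and crosslinking genes, 13 were higher and none was called lower. Loxl1, which crosslinks elastin, had 39.6, 40.7 and 27.2 FPKM in WT_8C libraries, against 6.31, 7.8 and 4.61 FPKM in WT_30C libraries (log2 difference 2.35 ± 0.20 (SE), adjusted p = 0.00014), and Mmp19 rose by 1.58.

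Skeletal muscle markers accounted for most of the largest falls. Of 19 tested, 15 were lower, a median of -1.78 (log2), and of the 15 largest falls of named genes without overlap, all but those of Eif3j1, Nnat, Sap25 and Mlf1 were of genes of muscle contraction or muscle metabolism. Acta1, skeletal muscle actin, had 136, 286 and 335 FPKM in WT_8C libraries, against 635, 819 and 1688 FPKM in WT_30C libraries (log2 difference -2.02 ± 0.41 (SE), adjusted p = 0.00532). Pvalb, a calcium buffer of fast muscle, had 26.7, 62.7 and 64.3 FPKM in WT_8C libraries, against 244, 279.5 and 713 FPKM in WT_30C libraries (log2 difference -2.91 ± 0.45 (SE), adjusted p = 0.00153). WT_30C replicate 3 held the most and WT_8C replicate 1 the least. Mb and Myh1, other muscle genes, overlapped between the groups. Of 11 tested nerve and Schwann cell markers 1 was higher and 2 were lower, and without WT_30C replicate 1 the lower ones were 7. Among 7 epithelial markers 1 was higher and 1 lower, and Krt19 had 35.5, 1.91 and 1.02 FPKM in WT_8C libraries, against 0.11, 0.0544 and 1.01 FPKM in WT_30C libraries, high in WT_8C replicate 1 alone. Of 6 erythrocyte markers 4 were higher, such as Alas2 (1.07). Of 4 sex-linked genes tested, Kdm5d fell by 0.39, and the other 3 were not called.

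Beige cells of this depot are held to arise from another lineage than classical brown fat. The list of lineage genes had 4 of 8 higher and 1 lower (2 higher without WT_8C replicate 3). The classical brown lineage genes Zic1 and Myf5 were under the filter, with Zic1 at 0.0239, 0 and 0.0235 FPKM in WT_8C libraries, against 0, 0 and 0.0598 FPKM in WT_30C libraries. Hoxc10, a positional gene of the inguinal depot, had 20.3, 15.8 and 19.4 FPKM in WT_8C libraries, against 11.4, 9.12 and 8.35 FPKM in WT_30C libraries (log2 difference 0.88 ± 0.15 (SE), adjusted p = 0.00206). Mpzl2, also called Eva1 and used as a marker of classical brown fat, rose by 0.76, whereas Epsti1, used in the same way and also known as an interferon-responsive gene, had 34.5, 43.4 and 40.9 FPKM in WT_8C libraries, against 119, 94.6 and 90.8 FPKM in WT_30C libraries (log2 difference -1.33 ± 0.14 (SE), adjusted p = 0.000271).

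Several of the largest rises belong to no pathway above. Phospho1, a phosphatase that acts on phosphocholine and phosphoethanolamine, had 43.1, 58.2 and 53.9 FPKM in WT_8C libraries, against 2.32, 2.14 and 3.28 FPKM in WT_30C libraries (log2 difference 3.88 ± 0.16 (SE), adjusted p = 9.57e-06). Kng2, a kininogen, had 14, 17.2 and 17.3 FPKM in WT_8C libraries, against 0.273, 0.226 and 0.196 FPKM in WT_30C libraries (log2 difference 3.79 ± 0.13 (SE), adjusted p = 3.93e-06). Pla2g2e, a secreted phospholipase, had 12.6, 12.3 and 15.6 FPKM in WT_8C libraries, against 0, 0.111 and 0 FPKM in WT_30C libraries (log2 difference 3.8 ± 0.14 (SE), adjusted p = 3.93e-06). All were at or near 0 in WT_30C libraries apart from Phospho1, which was low there. Hpdl, a mitochondrial dioxygenase-like enzyme, had 16.4, 16.9 and 18 FPKM in WT_8C libraries, against 0.563, 0.84 and 0.81 FPKM in WT_30C libraries (log2 difference 3.38 ± 0.12 (SE), adjusted p = 3.93e-06), and Fam131c rose by 3.56 (log2). Kng2, Pla2g2e and Hpdl reached 1 FPKM in no WT_30C library, so they passed the filter only through their WT_8C values. The same holds for Elovl3, Slc25a34, Cyp2b10, Fgf21, Saa3 and Bmp8b above. Other genes stand out by level. The called genes with the highest mean FPKM in WT_8C were Fabp4, Rps27rt, Thrsp, Dbi, Rpl38, Cox8b, Rpl41, Cox6a1, Aldoa and Rplp1, and in WT_30C they were Fabp4, Rps27rt and otherwise 6 more ribosomal protein genes, Tmsb4x and Eef1a1. Dbi, an acyl-CoA binding protein, had 4714, 3714 and 4170 FPKM in WT_8C libraries, against 2386, 2434 and 1676 FPKM in WT_30C libraries (log2 difference 0.97 ± 0.18 (SE), adjusted p = 0.00361), and Tmsb4x, an actin-binding peptide abundant in blood cells, had 1973, 2217 and 2137 FPKM in WT_8C libraries, against 4392, 3745 and 4531 FPKM in WT_30C libraries (log2 difference -1.0 ± 0.13 (SE), adjusted p = 0.000875). Among the falls, Sap25, of the Sin3 corepressor complex, had 9.03, 14.9 and 12 FPKM in WT_8C libraries, against 48.8, 48.3 and 64.9 FPKM in WT_30C libraries (log2 difference -2.1 ± 0.19 (SE), adjusted p = 0.000155). The largest fall of all was that of Eif3j1, a translation initiation factor gene, with 0.13, 0.103 and 0.0863 FPKM in WT_8C libraries, against 16.4, 21.9 and 11.8 FPKM in WT_30C libraries, but its near-identical copy Eif3j2, which was not called, had 31.8, 28.4 and 34 FPKM in WT_8C libraries, against 11, 0.367 and 18.3 FPKM in WT_30C libraries. The sum of the pair was 31.9, 28.5 and 34.1 FPKM in WT_8C libraries, against 27.4, 22.3 and 30.1 FPKM in WT_30C libraries. The counting may have split reads between them, so neither call is certain.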

How the data were processed

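RNA was sequenced from inguinal fat of 12 samples, of which the 6 libraries labelled WT were used. Per the submitters' processing notes, bcl2fastq, FastQC 0.11.3, TopHat2 2.0.14 and Cufflinks 2.2.1 were used with the mm10 build; the annotation is not given in the sources used here. The deposited table holds FPKM per gene as computed by the authors, although it is named as counts, so no count test was used and read depth is unknown. Every library column was matched to a sample by name. FPKM are relative to a library's own total, so a large rise of some genes lowers the share of others.

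Genes with 1 FPKM or more in 3 or more of the 6 libraries were kept, so a gene low in a group can pass through the other group alone. WT_8C was compared with WT_30C on log2(FPKM + 1) with limma 3.58.1 (R 4.3.3; variance trend, empirical Bayes, Benjamini-Hochberg adjustment over all 12721 genes tested; "adjusted p" means this throughout, and a gene was called at under 0.05). On this scale the change of low genes is understated. Scd1 and any other gene that combined a 0 in 1 library with a level of 1000 FPKM or above in another were left out. On simulated libraries 65 of 67 genes changed 4-fold and 25 of 67 changed 1.5-fold were called, with 5 of 12520 unchanged genes. Far fewer genes changed there than in the data, where 47.4% were called, so these rates need not carry over. Same-numbered WT_8C and WT_30C libraries had deviations that correlated at 0.0588, -0.0156 and 0.2, so the numbers were not taken as pairs. Promoters are from RefSeq (GRCm38.p6). Figures used Python 3.11.15 and matplotlib 3.10.9.

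Named genes are list members, preferring called ones with a small adjusted p, a fixed set of thermogenic genes and family pairs, up to 15 genes with the largest non-overlapping difference in each direction, and the 10 most abundant called genes of each group. The members, lists and rule were chosen with earlier results of these data known. Some list members are not reported here by name.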

Additional observations from a re-analysis of the deposited data

How the results depend on the processing

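The counts of 3038 genes higher and 2986 lower in WT_8C (limma) stayed within 1.5 times in every alternative run but that which also asked for an absolute log2 fold change of at least 1, which left 870 higher and 374 lower. Among the other settings were all 12 libraries in the fit (3171 higher, 3249 lower), no filter (2913, 2802), a filter at 5 FPKM (2585, 2367), upper quartile scaling (2895, 3372) and equal FPKM sums (2337, 4229). Leaving out 1 library gave 2321 to 2972 higher and 2018 to 3101 lower, and 3977 of the 6024 genes kept their call in all 6 such fits. None of the 6024 genes was called in the opposite direction in any other setting.

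With the replicate number as a block, 3058 genes were higher and 2957 lower. The numbers did not pair the libraries, so this fit is given for completeness.

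Some genes that were not called changed sign and passed the threshold when 1 library was left out, and the cause was not tested. Without WT_8C replicate 2, the log2 difference was -1.19 for Nr4a1, -0.60 for Junb, -0.96 for Egr1, -0.80 for Egr2, -0.47 for Ier2 and -0.75 for Cxcl1; the highest values on leaving out another library were 0.88, 0.60, 1.54, 0.53, 0.70 and 1.16 in the same order. Epcam was at -0.69 without WT_8C replicate 1 and at most 0.41 otherwise.

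Of the genes named as called, some lost their call when 1 library was left out, with adjusted p-values (limma) of up to 0.142 for Rpl38, 0.136 for Elovl6 and 0.0845 for Fasn. Without WT_8C replicate 1, Ckmt2, Col5a1, Col5a2, Cox6a2, Creb1, Elovl6, Fasn, Fitm1, Hspa5, Kdm5d, Ndufs5, Pde3b, Pde4d, Plin1, Rpl38 and Slc16a3 were no longer called. Without WT_8C replicate 2, Acly, Atpif1, Ckmt2, Col5a1, Col5a2, Cox6a2, Creb1, Elovl6, Fasn, Pde4d, Plin1, Rpl38 and Timd4 were no longer called. Without WT_8C replicate 3, Acly, Eef1a1, Elovl6, Fasn, Gabpa, H2-Ab1, Hspa5, Kdm5d, Mpzl2, Ndufs5, Pde3b, Pde4d, Rpl38, Rpl41 and Timd4 were no longer called. Without WT_30C replicate 1, Atpif1, Col5a1, Col5a2, Creb1, Eef1a1, Elovl6, Fasn, H2-Aa, H2-Ab1, H2-Eb1, Kdm5d, Mcm2, Ndufs5, Pde3b, Pde4d, Plin1, Rara, Rpl38, Rpl41 and Timd4 were no longer called. Without WT_30C replicate 2, Ckmt2, Cox6a2, Gabpa, Hspa5, Pde3b, Pde4d and Timd4 were no longer called. Without WT_30C replicate 3, Atpif1, Ckmt2, Col5a1, Col5a2, Cox6a2, Creb1, Elovl6, H2-Aa, H2-Ab1, Hspa5, Kdm5d, Ndufs5, Pde3b, Rpl38, Ryr1 and Slc16a3 were no longer called. The calls of Ucp1, Elovl3, Dio2, Lep, Acacb, Fgf21, Nnat and Ern1 held in all 6 fits. Counts of 1 or 2 members called against the direction of their list, where not given above, moved by at most 2 on leaving out 1 library. Depth is unknown, so precision at low FPKM rests on the spread of 3 libraries a group.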
